A study of Mus musculus with 70 samples.

Results

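Lungs of wildtype mice were compared 9 months after inhaled crystalline silica and 9 months after air. The libraries were chosen by their labels alone, and 10 of the 70 libraries of the series belong to this comparison, 5 from silica-exposed and 5 from air-exposed mice. All genes of the count table were analysed. The comparison was made with all 10 libraries and again without air libraries in which Chil3, a chitinase-like gene, took more than 1500 CPM (counts of a gene when the library total is scaled to 1000000), which left 9. The mice were male and of strain 129S-Slc26a4tm1Erg/AjgJ (spelled in a second way elsewhere in the labels), bred from heterozygous parents and genotyped as homozygous wildtype (Pds+/+) for Slc26a4. They were about 3 months old when they were placed in a whole-body inhalation chamber. Silica mice breathed Min-U-Sil 5 crystalline silica at 15 mg/m3 for 6 hours a day on 4 days, and air mice breathed air. RNA came from a piece of lung, so its cell makeup can differ between mice. The series also holds homozygous Slc26a4 knockout mice (Pds-/-) and lungs taken 1 day and 3 months after exposure, which are used here to place the wildtype values of 9 months. The knockout libraries of 9 months also share the fitted model, so they bear on which wildtype genes pass. Labels number the animals but do not say whether they shared cages or litters.

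Crystalline silica particles are taken up by alveolar macrophages, damage the lysosome after uptake and are cleared from the lung slowly. Macrophages and epithelial cells that meet the particles release chemokines, which draw neutrophils, monocytes and lymphocytes, and interleukin 1 family proteins, and long exposure leads in people to silicosis, a nodular fibrosis. Slc26a4 encodes pendrin, an anion exchanger of the apical epithelial membrane that is known to rise in inflamed airways.

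The deposited counts summed to 1464182 to 2506714 per air library and to 1810624 to 2656032 per silica library. Replicates differed from each other by more than sampling noise, with a chi-square per degree of freedom between 2.16 and 12.4 over pairs of air libraries and between 3.00 and 5.31 over pairs of silica libraries, so none was a repeat of another. In air mouse 5 Chil3 took 7864 CPM, against 654 to 853 in the other 4 air mice and 656 to 2486 in the silica mice. Sample quality weights, which limma's voom sets lower for a library that strays from its group, were 0.389 for air mouse 5 and 0.964 to 1.36 for the other 9. Lars2, whose gene encodes the mitochondrial leucyl-tRNA synthetase, held 8.58% to 14.1% of the counts in air libraries and 6.58% to 8.58% in silica libraries. Its share thus moved with exposure. The count table does not show which reads were assigned to Lars2, so its values are given as assigned counts and not as the level of the synthetase transcript. Alveolar type 2 markers, which define lung tissue, summed to 19915 to 32504 normalised CPM in air and 21907 to 24816 in silica mice. Normalised CPM here means CPM with the library total scaled by edgeR's TMM factors.

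With all 10 libraries, 3 of 12826 tested genes passed a Benjamini-Hochberg adjusted p of 0.05 in edgeR's quasi-likelihood test, or 0.0234%. All 3 were higher after silica, namely the pantetheinase Vnn1, the surface antigen Ly6i and the metal ion transporter Slc39a8. At an unadjusted p under 0.05 there were 875 genes. Without air mouse 5, and without the 2 knockout air libraries over the same limit that share the model, 211 of 12839 genes passed, or 1.64%. Of these 156 were higher (1.22% of genes tested) and 55 lower (0.428%), 75 of the higher and 5 of the lower by at least 2-fold, and 1707 genes had an unadjusted p under 0.05. Air mouse 5 was set aside on a measured gene, so calls made without it describe the 4 air libraries that remain. The limit was applied to air libraries only, and silica mouse 5 with a Chil3 level of 2486 CPM stayed in although it lay above the same limit. Below, "without air mouse 5" stands for that fit of 19 libraries. In bulk tissue a change in the number of cells of a type and a change in RNA per cell cannot be told apart, and this holds for every gene below.

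These counts depended on which libraries shared the fit. With air mouse 5 alone set aside and both knockout air libraries kept, 20 genes passed, 18 higher and 2 lower, all of them among the 211. The 18 were Vnn1, Vnn3, Ly6i, Slc39a8, Chil1, Lcn2, Pigr, Wfdc17, Cxcl5, Ccl22, Ccl6, Ctsk, Clec4n, Lamp3, Noxo1, Itih4, Nabp1 and Nov, and the 2 were Adcy5 and Ctgf. Without air mouse 2 as well as the 3 libraries, 120 passed, and with the 9 wildtype libraries alone 144. With the log2 share of counts on Lars2 as a covariate, tried after the data were seen, 0 genes passed with all 10 libraries (574 at an unadjusted p under 0.05 in edgeR) and 89 without air mouse 5. Of 116 genes named here that passed without air mouse 5, 63 of the 87 higher and 8 of the 29 lower also passed whichever of the other 9 wildtype libraries was left out, genes that were not tested in each of these fits (H2-M2 and Mab21l3) not being counted as passing. Ifi44, Iigp1, Ncapg and Hist1h1b, which are named below after their values were seen, are not among the 116. Mt2 passed in none of these 9 fits and Ramp2 in 1. Per1, Anxa9, Aqp5, Gpihbp1, Cd209f, Foxf1, Serpinh1, Cftr and C3ar1 passed in 2. Acp5, Tnfrsf11a, Fabp5, Tnip1, Awat1, Fendrr, Ppp2r2b, Tsc22d3 and Vtn passed in 3. Nr4a1, H2-K1, Clec4e and Asgr2 passed in 4.

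**Figure D1:**
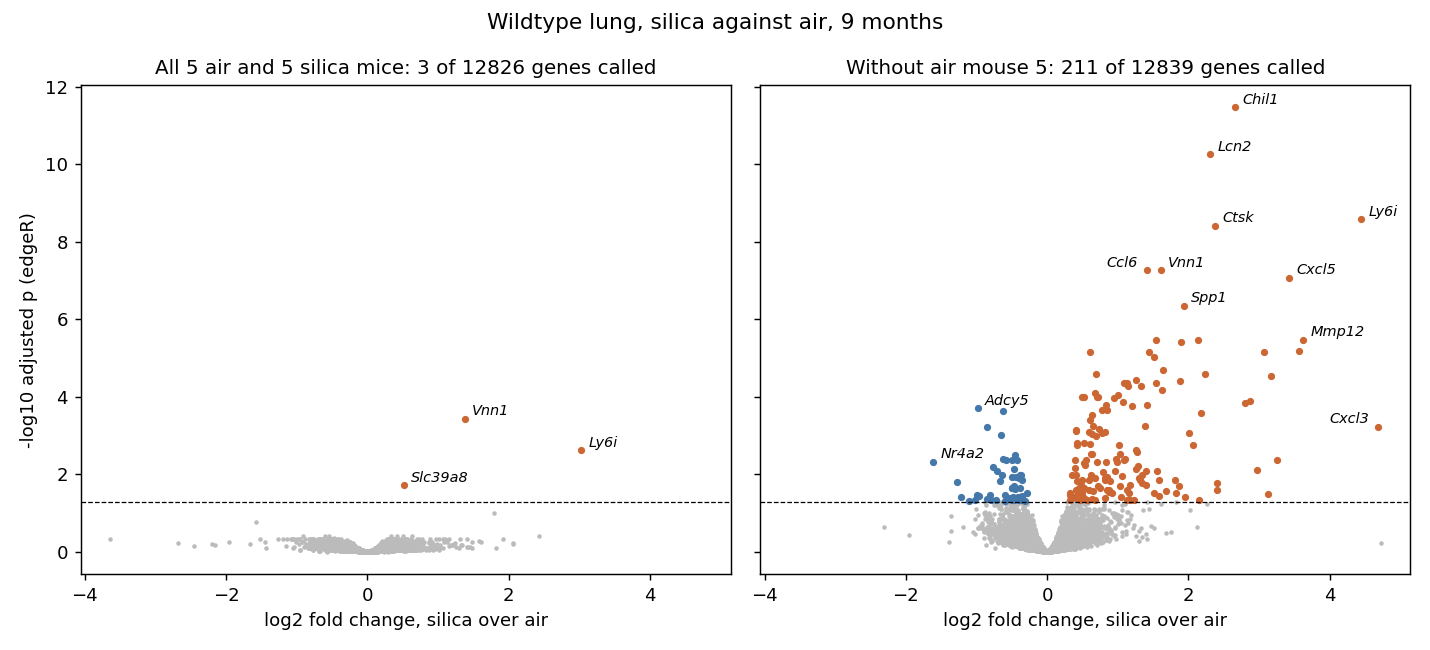
Each point is 1 gene, with its log2 fold change of silica over air (x axis) and the -log10 of its adjusted p in edgeR (y axis); the dashed line marks an adjusted p of 0.05. With all mice (left) 3 genes lie above the line, and without air mouse 5 (right) 156 genes lie above it on the right side and 55 on the left side.

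Vnn1, Ly6i and Slc39a8 were the genes whose calls did not need air mouse 5 to be set aside. Vnn1 (chromosome 10 at 23894688 to 23905343 of GRCm38, the build also called mm10) encodes an epithelial enzyme that releases cysteamine from pantetheine. It read 15.2, 10.5, 19.2, 14.7 and 27.8 normalised CPM in air mice 1 to 5 and 44.8, 41.1, 57.2, 43.0 and 44.4 in silica mice 1 to 5. Air mouse 5 had the highest air value, and all 5 silica mice lay above it, without overlap. Its log2 fold change was 1.38 ± 0.18 (standard error) with all mice, adjusted p = 0.000363 in edgeR, and 1.61 ± 0.16 without air mouse 5, adjusted p = 5.45e-08. Ly6i (chromosome 15 at 74979534 to 74983430), a GPI-anchored antigen of the Ly6 family found on myeloid cells, read 0.721, 1.16, 1.28 and 0.420 in air mice 1 to 4, 8.48 in air mouse 5 and 20.6, 21.9, 14.4, 15.0 and 33.3 in the silica mice. Here air mouse 5 stood between the other air mice and the lowest silica mouse, and the log2 fold change went from 3.02 ± 0.45 to 4.44 ± 0.37 when it was set aside. Slc39a8 (chromosome 3 at 135825279 to 135888572), a zinc, manganese and iron importer, read 203, 216, 229, 211 and 225 in air mice 1 to 5 and 309, 322, 325, 306 and 283 after silica. Air mouse 5 lay inside the range of the other air mice for this gene, the groups did not overlap, and the difference was 0.51 ± 0.09 with and 0.52 ± 0.08 without it. With all libraries Vnn1 passed whichever wildtype mouse was left out, Slc39a8 missed the threshold without air mouse 1, 2 or 4 or silica mouse 2 or 3 (adjusted p = 0.0772 to 0.118 in edgeR), and Ly6i missed it with the 2 wildtype groups fitted alone (0.0569). Slc13a3, a sodium-coupled dicarboxylate carrier that was named after its values were seen, had the same layout at low counts, with 0, 1.16, 2.13, 1.26 and 1.41 in air and 3.74, 6.04, 6.30, 2.92 and 4.44 after silica. It missed the threshold with all mice (adjusted p = 0.0963) and passed without air mouse 5 (adjusted p = 0.0140 in edgeR). Ly6i belongs to a family of near-identical genes, so reads may have been split among its copies.

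**Figure D2:**
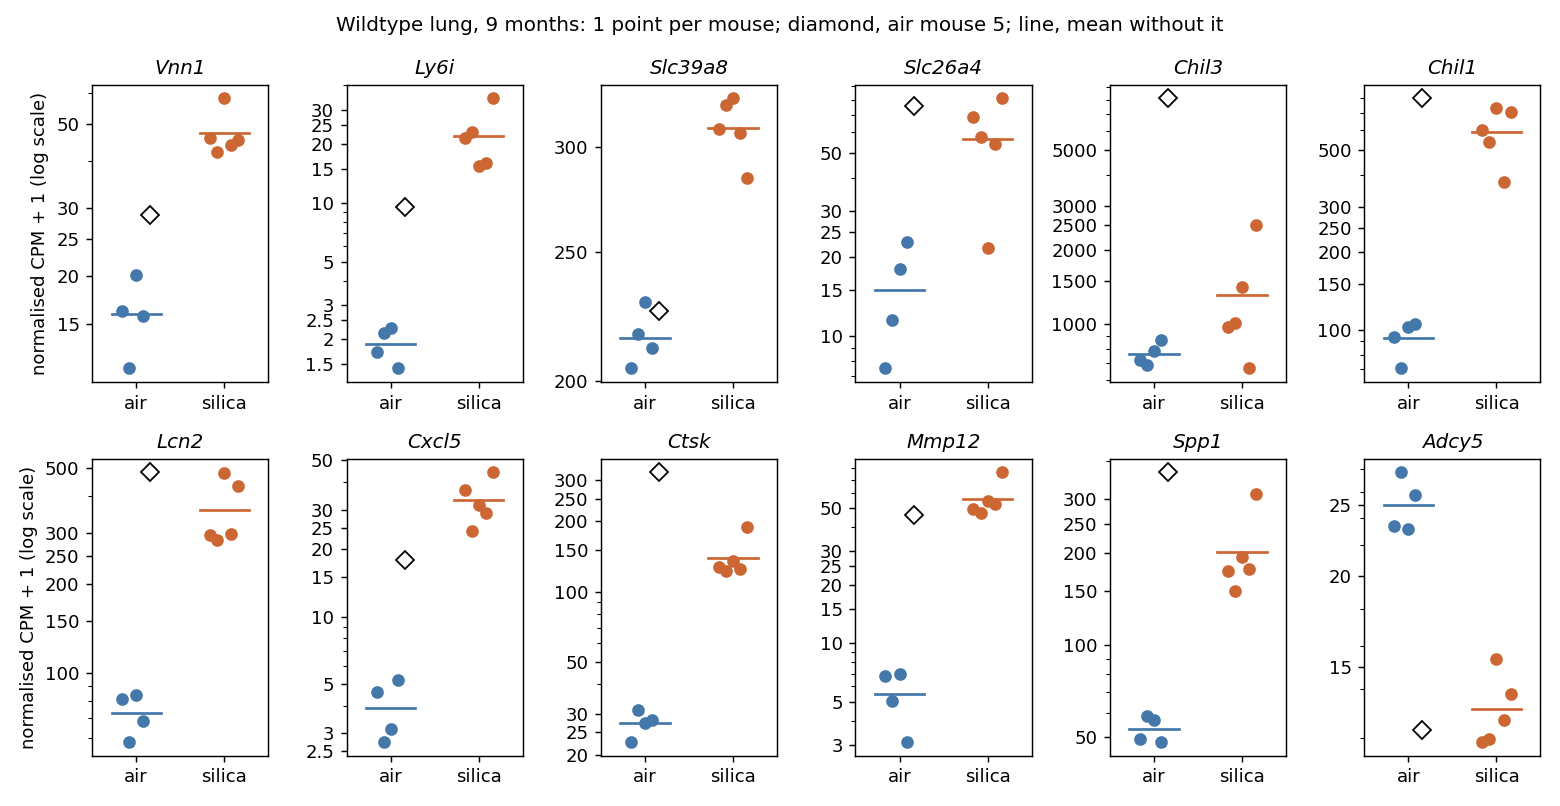
Normalised CPM plus 1 on a log axis (y) of 12 genes in each wildtype mouse of 9 months, by exposure (x); the diamond is air mouse 5 and each bar is the group mean without it. For Vnn1, Ly6i and Slc39a8 the diamond lies below every silica mouse, for Chil3, Ctsk and Spp1 it lies above every silica mouse, and for Adcy5 it lies within the silica range.

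Air mouse 5 lay on the silica side for most of the genes called without it. Of the 156 higher genes it stood above the other 4 air mice in 151 (96.8%), against 27.2% of all 12839 tested genes, above the silica median in 117 (75.0%) and above all 5 silica mice in 88. Of the 55 lower genes it stood below the other 4 air mice in 48 (87.3%), against 26.6% of all tested genes, below the silica median in 38 and below all silica mice in 21. The median distance from the mean of air mice 1 to 4 over the 156 genes was 1.43 (log2 of normalised CPM plus 2) in air mouse 5 and 0.66 to 1.09 in the silica mice. Over the 55 lower genes it was -0.68 in air mouse 5 and -0.43 to -0.59 in the silica mice. Silica mice and air mice 1 to 4 did not overlap in 144 of the 156 and 41 of the 55 genes. Among all tested genes, silica lay wholly above these 4 air mice in 3.01% and wholly below in 1.88%. The genes were selected on these same libraries, so the silica values are a description and not a test. Air mice 1 to 4 took part in that selection and air mouse 5 did not. The shares over all tested genes, which were not selected, are therefore no like baseline for air mouse 5. No share over all tested genes was computed for its place against the silica mice.

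**Figure D3:**
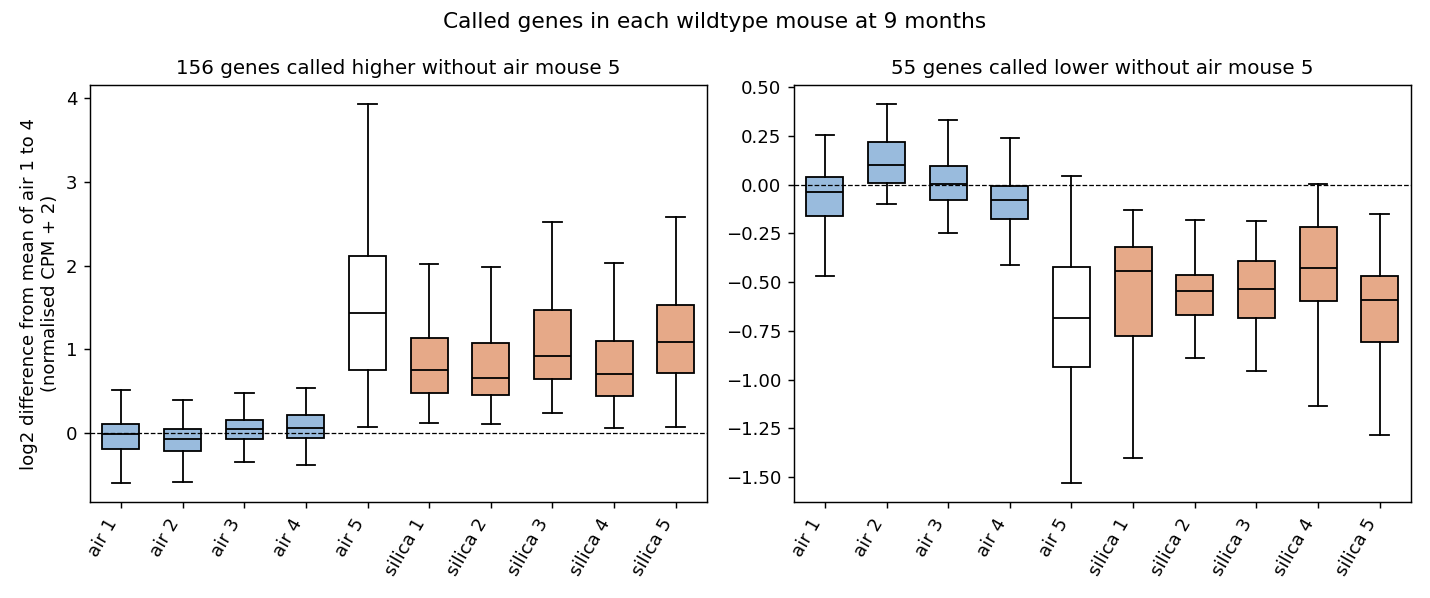
Distance of each mouse (x axis) from the mean of air mice 1 to 4 (y axis, log2 of normalised CPM plus 2) over the 156 genes called higher (left) and the 55 called lower (right) without air mouse 5; boxes span the quartiles with the median as a line, and whiskers reach the last gene within 1.5 box lengths. Air mouse 5 has a median of 1.43 in the left panel, above the 0.66 to 1.09 of the silica mice. The calls are from the fit that also left out the 2 knockout air libraries over the Chil3 limit.

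Slc26a4 (chromosome 12 at 31519827 to 31559969), the gene that the series targets, read 6.49, 10.5, 17.0 and 21.8 normalised CPM in air mice 1 to 4, 74.9 in air mouse 5 and 67.6, 56.5, 20.7, 53.0 and 79.9 in silica mice 1 to 5. Silica mouse 3 fell among the air mice 1 to 4, the other 4 silica mice lay above them, and air mouse 5 exceeded 4 of the 5 silica mice. Its log2 fold change was 1.89 ± 0.27 without air mouse 5 (adjusted p = 3.87e-05 in edgeR) and 1.03 ± 0.55 with it (adjusted p = 0.763). Slc26a4 was not among the 20 genes that passed with air mouse 5 alone set aside and the knockout air libraries kept. Of 10 tested genes of pendrin and epithelial ion transport, Cftr, the chloride and bicarbonate channel, also rose (0.56 ± 0.15), the other 8 did not pass, and the list's median was -0.05. The median over all 12839 tested genes was -0.0048, which serves as the comparison for every list.

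Chil3 and Chil1, which encode secreted chitinase-like proteins without enzyme activity, separated. Chil3 read 721, 683, 784 and 862 in air mice 1 to 4, 8094 in air mouse 5 and 976, 1013, 1407, 665 and 2498 after silica, so that the groups overlapped even without air mouse 5. It did not pass in either fit, at -0.77 ± 0.63 with all mice (adjusted p = 0.866) and 0.78 ± 0.24 without air mouse 5 (adjusted p = 0.109). Because Chil3 chose the library that was set aside, its second value is a description. Chil1 read 93.1, 69.7, 101 and 104 in air mice 1 to 4, 794 in air mouse 5 and 596, 538, 732, 373 and 702 after silica. All silica mice lay above air mice 1 to 4 and below air mouse 5, and the log2 fold change of 2.66 ± 0.16 had the smallest adjusted p of all genes without air mouse 5 (3.34e-12 in edgeR). With air mouse 5 alone set aside and the knockout air libraries kept, the adjusted p of Chil1 was 0.0141 in edgeR. Of 10 tested genes of the chitinase-like, type 2 and mucus list, Chil1 was the 1 that rose, the list's median being 0.38 without air mouse 5 and -0.48 with it. With all libraries no member of any list passed in either direction, Slc39a8, Vnn1 and Ly6i being in none.

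Transcripts of secreted defence proteins rose. Of 9 tested acute phase and defence genes 5 rose and 4 did not pass (median 0.89, and 0.56 with air mouse 5). Lcn2, a siderophore-binding protein of neutrophils and epithelium, read 80.1, 56.9, 83.0 and 67.1 in air mice 1 to 4, 482 in air mouse 5 and 294, 282, 479, 297 and 434 after silica, a log2 fold change of 2.31 ± 0.16 without air mouse 5. The acute phase apolipoprotein Saa3 read 3.61, 2.32, 3.83 and 0.839, then 14.6 in air mouse 5, and 9.72, 16.5, 36.9, 9.18 and 20.0 after silica (2.80 ± 0.43). For both genes every silica mouse lay above air mice 1 to 4, and air mouse 5 lay above all 5 of them for Lcn2 and above silica mice 1 and 4 for Saa3. Pigr, which carries polymeric immunoglobulin across epithelium, rose by 1.63 ± 0.22, the small secreted Wfdc17 by 3.17 ± 0.44 and the surfactant collectin Sftpd by 0.70 ± 0.11.

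Neutrophil-attracting chemokines rose while no gene of the neutrophil marker list passed. Of 5 tested genes of the neutrophil chemokine and growth factor list 3 rose (median 2.87, and 1.05 over 6 genes with air mouse 5). Cxcl5, an epithelial CXCR2 ligand, read 3.61, 1.74, 2.13 and 4.20 in air mice 1 to 4, 17.0 in air mouse 5 and 35.9, 23.0, 30.6, 28 and 43.3 after silica (3.43 ± 0.34). All 5 silica mice lay above air mouse 5 here, yet the gene did not pass with all libraries (adjusted p = 0.381). Cxcl1, another CXCR2 ligand, read 0.721, 1.16, 1.70 and 2.1, then 16.5 in air mouse 5, and 8.97, 8.23, 21.6, 8.35 and 10.5 after silica (2.87 ± 0.44), and silica mouse 3 alone exceeded air mouse 5. Cxcl3 read 0, 0.581, 0 and 0.420, then 30.2 in air mouse 5, which was above all silica mice at 4.86, 4.94, 14.9, 6.26 and 9.43. Air mice 1 to 4 held 2 Cxcl3 counts together and the silica mice 87, a ratio of rates of 31.2 with an exact 95% interval of 8.39 to 262 for counting error alone, beside a fitted log2 fold change of 4.69 ± 0.81. None of 7 tested neutrophil markers passed (median 0.17). The calgranulin S100a8, which had the smallest p among them (0.61 ± 0.36), read 17.3, 22.6, 14.9, 20.1 and 16.5 in air mice and 22.8, 23.6, 33.8, 23.4 and 40.5 in silica mice. Cxcr1, a chemokine receptor of neutrophils that is outside the list and was named after its values were seen, rose by 1.30 ± 0.29 without air mouse 5 and stood at -0.37 ± 0.54 with it. It read 10.8, 5.23, 5.53 and 10.1 in air mice 1 to 4, 89.5 in air mouse 5 and 22.0, 11.5, 12.2, 24.2 and 25.5 after silica, so that all silica mice lay above air mice 1 to 4 and below air mouse 5.

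Of the 17 named increases 14 had a promoter entry, and 5 of these held a kappa-B match and 9 did not. Start regions of 4 of the 5 are printed to show that match, all but that of H2-M2. H2-M2 is a gene of few counts, as is Cxcl3, which is printed. The motif is the binding motif of NF-kappa-B, whose own pathway list is described below. The sequences are from RefSeq on GRCm38.p6, on the plus strand from 5′ to 3′. Each begins 250 bases upstream of the RefSeq start and stops before the start of the gene in GENCODE or RefSeq, whichever comes first. Capitals mark matches on either strand to GGGA and CC parted by any 4 bases, which overlap each other around the palindromic match of Cxcl1 and Cxcl3.
Cxcl1: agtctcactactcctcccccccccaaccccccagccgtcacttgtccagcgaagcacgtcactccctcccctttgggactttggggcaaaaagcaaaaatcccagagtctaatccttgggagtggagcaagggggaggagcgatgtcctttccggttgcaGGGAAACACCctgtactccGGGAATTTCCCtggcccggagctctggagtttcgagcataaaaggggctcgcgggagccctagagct
Cxcl3: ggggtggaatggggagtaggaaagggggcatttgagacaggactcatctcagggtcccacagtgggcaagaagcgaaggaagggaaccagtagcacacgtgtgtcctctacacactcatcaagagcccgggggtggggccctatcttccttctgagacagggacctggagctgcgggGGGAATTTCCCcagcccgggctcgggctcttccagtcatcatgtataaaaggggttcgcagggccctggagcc
Ccl22: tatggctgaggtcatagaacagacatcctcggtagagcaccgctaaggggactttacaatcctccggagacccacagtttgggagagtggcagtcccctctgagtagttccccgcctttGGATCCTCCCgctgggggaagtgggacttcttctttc
Chil1: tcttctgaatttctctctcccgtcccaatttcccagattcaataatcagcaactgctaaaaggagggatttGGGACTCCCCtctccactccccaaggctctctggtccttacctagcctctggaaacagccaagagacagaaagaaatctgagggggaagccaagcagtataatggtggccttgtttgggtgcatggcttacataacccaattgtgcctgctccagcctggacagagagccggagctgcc
They lie at chr5:90890995-90891240, chr5:90785851-90786100, chr8:94745434-94745589 and chr1:134181906-134182155. Cxcl1 and Cxcl3 are neighbours on chromosome 5 and both hold the run GGGAATTTCCC, whose first base is 71 bases upstream of the start in Cxcl1 and 73 in Cxcl3. Chil1 holds its match 179 bases and Ccl22 131 bases upstream. These distances are counted from the RefSeq start. The printed stretch of Ccl22 has 156 bases because it stops at the earlier GENCODE start, so its match lies nearer to the printed end. For Ccl22 the 250 bases searched thus include bases inside the gene by GENCODE. In the 250 bases upstream of the start, 28.2% of 124 higher genes with an entry held a kappa-B match, against 22.8% of 9726 tested genes and 17.4% of all 27025 promoters in the table. The AP-1 motif TGANTCA, bound by Fos and Jun proteins, was held by 12.9% of the 124 higher genes and 4.33% of the tested genes. For TGACNNNGC, the antioxidant response element bound by NRF2, both shares were 12.1%. Of 38 lower genes with an entry 21.1% held a kappa-B match, 10.5% an AP-1 match and 23.7% an antioxidant response element. Both strands were searched, and a match is a description of letters only.

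Chemokines of the CC class rose with antigen presentation genes. Of 10 tested CC chemokines and receptors 6 rose (median 0.87), among them the monocyte and T cell attractants Ccl6 (1.42 ± 0.14), Ccl3 (3.57 ± 0.45) and Ccl9 (0.90 ± 0.21) and the monocyte receptor Ccr2 (0.84 ± 0.19). Ccl22 and Ccl17, ligands of CCR4 made by dendritic cells and macrophages, rose by 3.07 ± 0.39 and 2.40 ± 0.56. Ccl22 read 2.16, 0.581, 0.851 and 2.94 in air mice 1 to 4, 17.9 in air mouse 5 and 14.2, 12.6, 22.1, 11.3 and 11.1 after silica. Every silica mouse lay above air mice 1 to 4, and silica mouse 3 also above air mouse 5. Ccl6 read 164, 144, 148 and 175 in air mice 1 to 4, 847 in air mouse 5 and 419, 308, 386, 407 and 589.7 in silica mice, none of which reached air mouse 5. Of 17 tested MHC class II and dendritic cell genes 10 rose and none fell (median 0.61, and 0.37 with air mouse 5), 2 of them being Ccl22 and Ccl17 again. The class II chains H2-Ab1 (0.68 ± 0.10), H2-Aa (0.41 ± 0.07) and H2-Eb1 (0.43 ± 0.10), the invariant chain Cd74 (0.40 ± 0.08) and their transactivator Ciita (0.53 ± 0.11) rose, as did the costimulatory Cd86 (1.29 ± 0.27). H2-Ab1 read 324, 279, 308 and 279.9 in air mice 1 to 4, 493 in air mouse 5 and 409, 480.1, 579, 386 and 541 after silica. Silica lay above air mice 1 to 4 without overlap, and air mouse 5 lay within the silica range. In the MHC class I and immunoproteasome list, H2-K1 was the 1 of 13 tested genes that rose (0.53 ± 0.14, list median 0.26).

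Genes of lipid-laden and osteoclast-type macrophages rose in part. Of 18 tested genes of the lipid-laden and scar-type macrophage list 7 rose and none fell (median 0.29, and -0.05 with air mouse 5). Ctsk, the collagen-cleaving cathepsin K of osteoclasts, read 21.6, 30.2, 26.4 and 27.3 in air mice 1 to 4, 324 in air mouse 5 and 126, 121, 135, 124 and 188 after silica (2.37 ± 0.20). Mmp12, the macrophage elastase, read 5.77, 4.06, 5.96 and 2.1, then 45.2 in air mouse 5, and 48.2, 46.1, 53.1, 51.3 and 75.4 after silica (3.63 ± 0.44). For both genes all silica mice lay above air mice 1 to 4, and air mouse 5 lay above all silica mice for Ctsk and below all of them for Mmp12. Spp1, the matrix protein osteopontin, read 48.3, 57.5, 55.8 and 47.0, then 368 in air mouse 5, and 173, 149, 193, 177 and 312 after silica (1.94 ± 0.21). Gpnmb, a glycoprotein of lipid-laden macrophages, read 77.9, 81.3, 88.1 and 94.0, then 729.9 in air mouse 5, and 189, 187, 155, 202 and 306 after silica (1.26 ± 0.18). Air mouse 5 was above every silica mouse for both, and silica mouse 5 was the highest silica mouse for Ctsk, Mmp12, Spp1 and Gpnmb. Lipoprotein lipase Lpl (1.00 ± 0.15), the lectin Lgals3 (0.71 ± 0.15) and the fatty acid carrier Fabp5 (0.64 ± 0.17) rose as well. Of 9 osteoclast-type genes tested, Ctsk, the proton pump subunit Atp6v0d2 (0.84 ± 0.14), the macrophage growth factor Csf1 (0.64 ± 0.12), the tartrate-resistant phosphatase Acp5 (0.88 ± 0.22) and the RANK receptor Tnfrsf11a (0.81 ± 0.21) rose, with a median of 0.64 and of -0.06 with air mouse 5.

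Of 13 tested resident alveolar macrophage genes, the scavenger receptor Marco (1.13 ± 0.16) and the surface receptor Cd200r4 (1.26 ± 0.24) rose (median 0.17). Marco read 46.2, 56.3, 52.8 and 65.0 in air mice 1 to 4, 278 in air mouse 5 and 91.6, 96.0, 159, 105 and 160.3 after silica, and air mouse 5 was above all other wildtype mice of this time. The summed level of the 14 listed genes, to which Chil3 belongs, was 9684 in air mouse 5, at most 1729 in the other air mice and 1561 to 3486 in silica mice. Chil3 alone read 8094 in air mouse 5, 683 to 862 in air mice 1 to 4 and 665 to 2498 in silica mice. Most of the sum in air mouse 5 is thus the gene by which that mouse was set aside. Ccr2 was the 1 of 12 tested monocyte and interstitial macrophage genes that rose. Of 21 lysosome genes 4 rose, namely Gpnmb, the cathepsin Ctsz (0.53 ± 0.10), lysozyme Lyz2 (0.55 ± 0.11) and the acid lipase Lipa (0.49 ± 0.12), with a median of 0.22. Lysosome genes summed to 19133 in air mouse 5, at most 8439 in the other air mice and 9229 to 12883 in silica mice, which did not overlap air mice 1 to 4. Cybb, the catalytic subunit of the phagocyte NADPH oxidase, was the 1 of 6 tested genes of the oxidase and lactoperoxidase list that rose (0.78 ± 0.14).

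Receptors that sense microbes, particles and dead cells formed a further group. Of 18 tested pattern recognition and scavenger receptors 7 rose and none fell (median 0.52): Marco, the C-type lectins Clec4n (1.54 ± 0.22), Clec7a (0.95 ± 0.14), Clec4d (1.56 ± 0.33) and Clec4e (1.82 ± 0.45), the Toll-like receptor Tlr2 (0.82 ± 0.14) and the scavenger receptor Msr1 (1.41 ± 0.33). Of 17 NF-kappa-B pathway genes and targets 7 rose (median 0.38), among them 4 genes of inhibitors, Tnfaip3 (0.74 ± 0.13), Nfkbie (0.82 ± 0.18), Tnip1 (0.41 ± 0.11) and Tnip3 (2.06 ± 0.39). The cytokine Tnf read 2.16, 0.581, 2.55 and 2.52 in air mice 1 to 4, 9.42 in air mouse 5 and 9.34, 3.84, 12.2, 8.35 and 7.21 after silica (2.01 ± 0.36), above air mice 1 to 4 in each silica mouse. Of 14 tested inflammasome and interleukin 1 family genes 3 rose (median 0.36). They were the receptor antagonist Il1rn (1.89 ± 0.23), the interleukin 33 receptor Il1rl1 (1.41 ± 0.22) and interleukin 1 alpha, Il1a (0.98 ± 0.20). Il1rn read 6.49, 10.5, 7.66 and 5.87 in air mice 1 to 4, 38.2 in air mouse 5 and 28.8, 19.8, 35.1, 21.7 and 35.5 after silica, with air mouse 5 above all silica mice. Of 15 complement genes the central component C3 (0.64 ± 0.10), its convertase factor Cfb (1.38 ± 0.24) and the receptor C3ar1 (1.17 ± 0.31) rose (median 0.26).

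Of 17 tested NRF2 target and glutathione genes the cystine importer Slc7a11 rose and 16 did not pass (median -0.01). Slc7a11 read 6.49, 6.39, 7.66 and 5.04 in air mice 1 to 4, 67.9 in air mouse 5 and 31.4, 23.0, 36.5, 22.5 and 26.6 after silica (2.13 ± 0.26), so that air mouse 5 lay above every silica mouse and these above air mice 1 to 4. In the iron, zinc and metallothionein list the metalloreductase Steap4 rose (1.54 ± 0.18), the metallothionein Mt2 fell (-1.02 ± 0.26) and 13 of 15 did not pass. Mt2 read 6.49, 6.97, 7.23, 6.29 and 9.90 in air and 2.62, 3.29, 3.60, 3.34 and 3.88 after silica, and air mouse 5 was the highest of all, away from the silica mice.

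The division gene Mki67 read 29.6, 27.3, 28.9 and 37.3 in air mice 1 to 4, 102 in air mouse 5 and 72.5, 54.3, 75.6, 53.0 and 73.8 after silica, and rose by 1.08 ± 0.15. It was the 1 of 9 tested genes of the cell division list to pass, while all 9 had a value above 0 (median 0.56). Outside that list, and named after their values were seen, Ncapg and the histone Hist1h1b also rose at low counts. Ncapg had a mean of 0.924 in air mice 1 to 4 and 4.08 after silica, and Hist1h1b 1.35 and 5.42. Genes of the interferon-stimulated list had a median of 0.75 with all 16 tested genes above 0, and none passed. Their summed level was 371 to 904 in silica mice and 351 to 446 in air mice. Ifit1, an RNA-binding member, read 21.6, 11.6, 18.7, 18.5 and 22.6 in air mice and 26.5, 14.8, 24.3, 18.8 and 73.8 in silica mice, of which mouse 5 was far above the others (0.81 ± 0.32, adjusted p = 0.246 in edgeR). Outside that list, and named after their values were seen, the interferon-induced Ifi44 and Iigp1 passed without air mouse 5. Ifi44 read 2.16 to 5.04 in air mice 1 to 4, 7.07 in air mouse 5 and 7.20 to 52.7 after silica. Iigp1 read 13.4 to 18.5, 25.9 and 20.4 to 66.0 in the same order. Silica mouse 5 was the highest for both, and neither passed with all libraries.

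Alveolar epithelium gave calls in both directions. Of 15 alveolar type 2 genes 4 rose (median 0.14), namely Sftpd, the lysosomal membrane protein Lamp3 of lamellar bodies (0.69 ± 0.09), the surfactant protein Sftpa1 (0.41 ± 0.07) and Lyz2. Lamp3 read 452, 432, 475 and 555 in air mice 1 to 4, 771 in air mouse 5 and 763, 777, 848, 647 and 843 after silica, above air mice 1 to 4 in all 5 silica mice. Aqp5, the water channel, was the 1 of 12 alveolar type 1 genes that fell (-0.46 ± 0.11, list median -0.17), and 11 of the 12 had a value below 0. It read 211, 222, 234 and 204 in air mice 1 to 4, 115 in air mouse 5 and 143, 139.9, 149, 218 and 141 after silica, where mouse 4 lay among the air mice and the other 4 below them. Of 14 genes of stressed and transitional alveolar epithelium Tnip3 and Lgals3 rose, the keratin Krt7 fell (-0.39 ± 0.09) and 11 did not pass (median -0.22). No club and airway secretory gene of 10 tested and no ciliated gene of 12 passed, with medians of -0.24 and -0.15. The secretory genes of smallest p were Cyp2f2 (-0.28 ± 0.09) and Scgb3a2 (-0.41 ± 0.14), and the ciliated Dnah5 (-0.26 ± 0.13) and Tppp3 (-0.20 ± 0.11).

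None of 22 tested extracellular matrix and fibrosis genes passed in either fit, and the median was 0.04 without and -0.01 with air mouse 5. Mmp2, a gelatinase, had the smallest p (0.34 ± 0.10, adjusted p = 0.0906 in edgeR), followed by the collagen chain Col1a1 (-0.39 ± 0.17, adjusted p = 0.299). Col1a1 read 150.1, 135, 121, 110.4 and 88.1 in air mice and 105, 115, 92.3, 113 and 62.7 after silica, with overlapping groups. Outside that list, and named after their values were seen, the fibril-associated collagen Col12a1 (-0.62 ± 0.10) and the growth factor Ctgf (-0.65 ± 0.12) fell, and at 3 months they stood at -0.45 ± 0.09 and -0.05 ± 0.22. Of 14 endothelial genes the lipase anchor Gpihbp1 of capillaries fell (-0.44 ± 0.12) and 13 had a value below 0 (median -0.13). None of 11 smooth muscle and pericyte genes and none of 11 heart muscle genes passed. Their medians were -0.30 and -0.59, and in both lists all 11 values were below 0. The heart muscle genes summed to 356 in air mouse 5, up to 1192 in the other air mice and 216 to 863 in silica mice. Smooth muscle genes summed to 574 in air mouse 5, up to 1111 in the other air mice and 641 to 1019 in silica mice. The fold changes of both lists had the sign of the lower genes, and the part of these muscle genes in those calls was not tested. Over all 5 air mice the range of each sum overlapped that of the silica mice. The fat cell genes Plin4 (-0.75 ± 0.21) and Cidec (-0.48 ± 0.19) did not pass among 5 tested.

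No gene of the lymphocyte, eosinophil and mast cell lists passed. Of 11 B and plasma cell genes (median -0.16), 7 T and natural killer cell genes (0.13), 8 regulatory T cell and costimulation genes (0.24) and 2 eosinophil and mast cell genes (-0.43) none passed. The smallest p among them was that of the costimulatory receptor Tnfrsf9, at 2.02 ± 0.59 with an adjusted p of 0.0817 in edgeR. Others named by the same rule were the IgM receptor Fcmr (-0.62 ± 0.31), the B cell receptor chain Cd79a (-0.35 ± 0.21), the T cell kinase Lck (0.57 ± 0.27) and the eotaxin receptor Ccr3 (-0.78 ± 0.48). None of 16 cholesterol and fatty acid synthesis genes (median 0.03) and none of 13 prostaglandin and leukotriene genes (-0.03) passed.

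**Figure D4:**
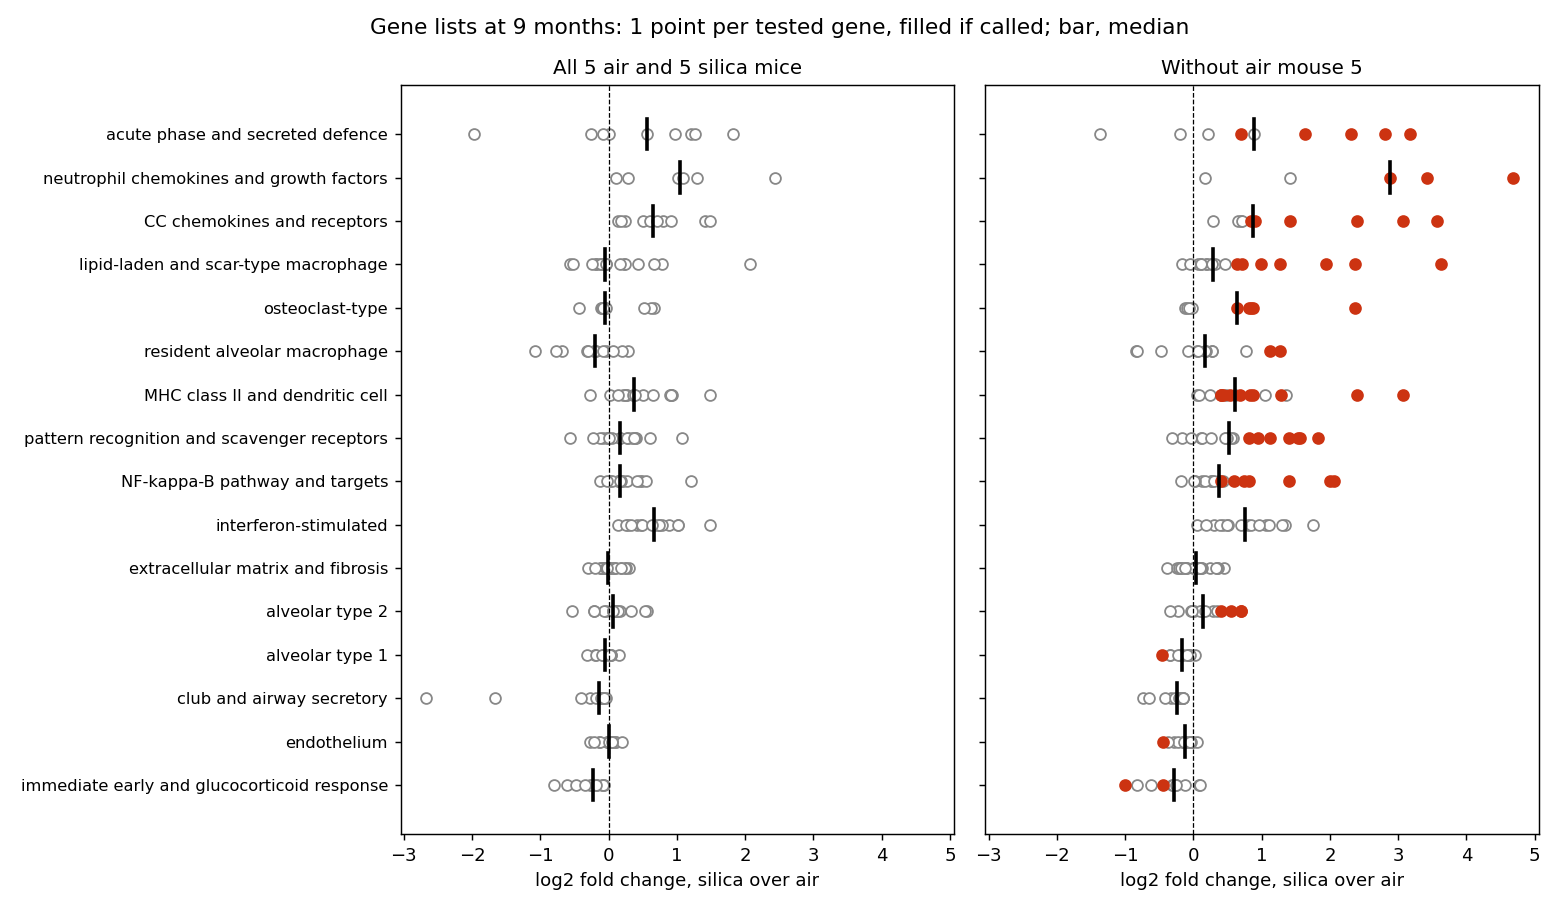
Log2 fold change of silica over air (x axis) of every tested gene in 16 of the 40 gene lists (rows), with all mice (left) and without air mouse 5 (right); filled points passed an adjusted p of 0.05 in edgeR and the bar is the list's median. No point is filled on the left, and on the right filled points lie above 0 in the defence, chemokine and macrophage lists and below 0 in alveolar type 1, endothelium and immediate early genes.

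The largest decrease was that of Nr4a2, an orphan nuclear receptor of the immediate early class, which read 9.38, 11.0, 7.23, 7.97 and 7.54 in air mice 1 to 5 and 4.48, 3.29, 0.900, 2.92 and 2.22 in silica mice 1 to 5. All air mice, mouse 5 included, lay above all silica mice, and the log2 fold change was -1.61 ± 0.33 without and -1.57 ± 0.33 with air mouse 5 (adjusted p = 0.164 with it in edgeR, which missed the threshold). Its relative Nr4a1 read 68.5, 98.7, 58.3 and 49.5 in air mice 1 to 4, 26.9 in air mouse 5 and 23.9, 42.8, 33.3, 30.5 and 42.7 after silica (-1.0 ± 0.25), air mouse 5 lying among the silica mice. Of 12 immediate early and glucocorticoid response genes Nr4a1 and the glucocorticoid-induced Tsc22d3 (-0.45 ± 0.12) fell and 10 did not pass (median -0.29), and of 12 circadian clock genes Per1 fell (-0.73 ± 0.19). Per1 read 61.3, 98.7, 76.6 and 73.4 in air mice 1 to 4, 47.1 in air mouse 5 and 36.6, 45.5, 53.6, 50.1 and 50.5 after silica. Adenylate cyclase Adcy5 read 22.4, 26.7, 22.1 and 24.8 in air mice 1 to 4, 11.3 in air mouse 5 and 10.8, 11.0, 14.4, 11.7 and 12.8 after silica (-0.99 ± 0.16). The cadherin Cdh13 of vessels read 46.2, 52.8, 51.9 and 49.9, then 16 in air mouse 5, and 26.9, 35.1, 21.6, 36.7 and 19.4 after silica (-0.85 ± 0.15). Silica lay below air mice 1 to 4 without overlap for Nr4a1, Per1, Adcy5 and Cdh13, and air mouse 5 was on the silica side. The other decreases among the 10 largest were Ctla2b (-1.27 ± 0.30), the lectin Cd209f (-1.22 ± 0.31), the annexin Anxa9 (-1.11 ± 0.30), Mt2, the phosphatase subunit Ppp2r2b (-0.96 ± 0.25) and the adhesion protein Vtn (-0.85 ± 0.22), with adjusted p values in edgeR between 0.0161 and 0.0472. Counts assigned to Lars2 read 137981, 112065, 150025, 86724 and 104669 in air mice and 65277, 81733, 73104, 86387 and 86146 in silica mice, a change of -0.63 ± 0.14 without air mouse 5 (adjusted p = 0.0104) and -0.59 ± 0.16 with it (adjusted p = 0.457).

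Several of the largest increases rest on few counts. The class Ib molecule H2-M2 had 4 counts in air mice 1 to 4 together and 58 in the silica mice, a ratio of rates of 10.4 with a 95% interval of 3.85 to 39.5. The wax synthase Awat1 had 4 and 53 counts (9.51, interval 3.50 to 36.2), and Mab21l3 had 3 and 37 counts (8.86, interval 2.80 to 44.9). The intervals are exact and cover counting error alone. The asialoglycoprotein receptor chain Asgr2 read 0, 0.581, 0.851 and 1.26 in air mice 1 to 4, 3.77 in air mouse 5 and 1.12, 7.68, 5.40, 3.76 and 4.44 after silica (2.40 ± 0.58), with silica mouse 1 among the air mice.

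Most increases had been called 3 months after exposure in other mice. At 3 months, with 6 silica and 6 air mice, 374 of 12647 genes passed (2.96%), 283 higher (2.24%) and 91 lower (0.72%), and at 1 day 298 of 12558 (2.37%), 245 higher (1.95%) and 53 lower (0.422%). Of the 151 genes called higher at 9 months without air mouse 5 that were also tested at 3 months, 119 were called higher at 3 months, 78.8% of the first list and 42.0% of the second. Of 146 tested at 1 day, 86 were called higher there, 58.9% of the first list and 36.4% of the 236 genes of the second that were tested at both times. None of these was called lower at either time. Of the 53 lower genes tested at both times, 7 were called lower at 3 months (13.2%, and 7.87% of the 89 genes of the 3-month list tested at both times), and 3 of 54 at 1 day. The median log2 fold change of the 151 genes was 0.92 at 9 months and 0.84 at 3 months, and that of the 53 lower genes was -0.49 at 9 months and -0.16 at 3 months. The first value of each pair was selected for its size and the second was not.

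Side by side, Chil1 differed by 2.69 ± 0.14 at 1 day, 2.65 ± 0.13 at 3 months and 2.66 ± 0.16 at 9 months without air mouse 5. Lcn2 differed by 3.14 ± 0.14, 2.72 ± 0.14 and 2.31 ± 0.16 in the same order, Ctsk by 1.22 ± 0.17, 2.67 ± 0.15 and 2.37 ± 0.20, Spp1 by 0.98 ± 0.12, 1.52 ± 0.17 and 1.94 ± 0.21, and Vnn1 by 1.72 ± 0.17, 1.98 ± 0.27 and 1.61 ± 0.16. Nr4a1 was not called at 1 day (-0.13 ± 0.33) or 3 months (0.02 ± 0.26), nor was Nr4a2 (-0.03 ± 0.33 and -0.39 ± 0.26). No gene passed the test of the difference between the effects of 9 and 3 months in edgeR, of 13252 tested with all libraries (772 at an unadjusted p under 0.05) and of 13305 without the high-Chil3 air libraries (603). In simulated counts of the same size, 61.2% of genes whose effect differed 2-fold and 25.4% of those that differed 1.5-fold were recovered with all libraries, so differences of that size could be missed. The genes of smallest p with all libraries were the neutrophil antigen Cd177, which differed by -3.06 ± 0.72 (adjusted p = 0.260), Cd209f by -1.81 ± 0.43 and the nuclease Dffb by 1.38 ± 0.32. Without the high-Chil3 libraries they were Cd209f (-1.99 ± 0.44), the metalloproteinase inhibitor Timp1 (-2.30 ± 0.59, adjusted p = 0.544) and Israa (0.79 ± 0.21). Timp1 stood at 2.36 ± 0.39 at 3 months and 0.07 ± 0.31 at 9 months.

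**Figure D5:**
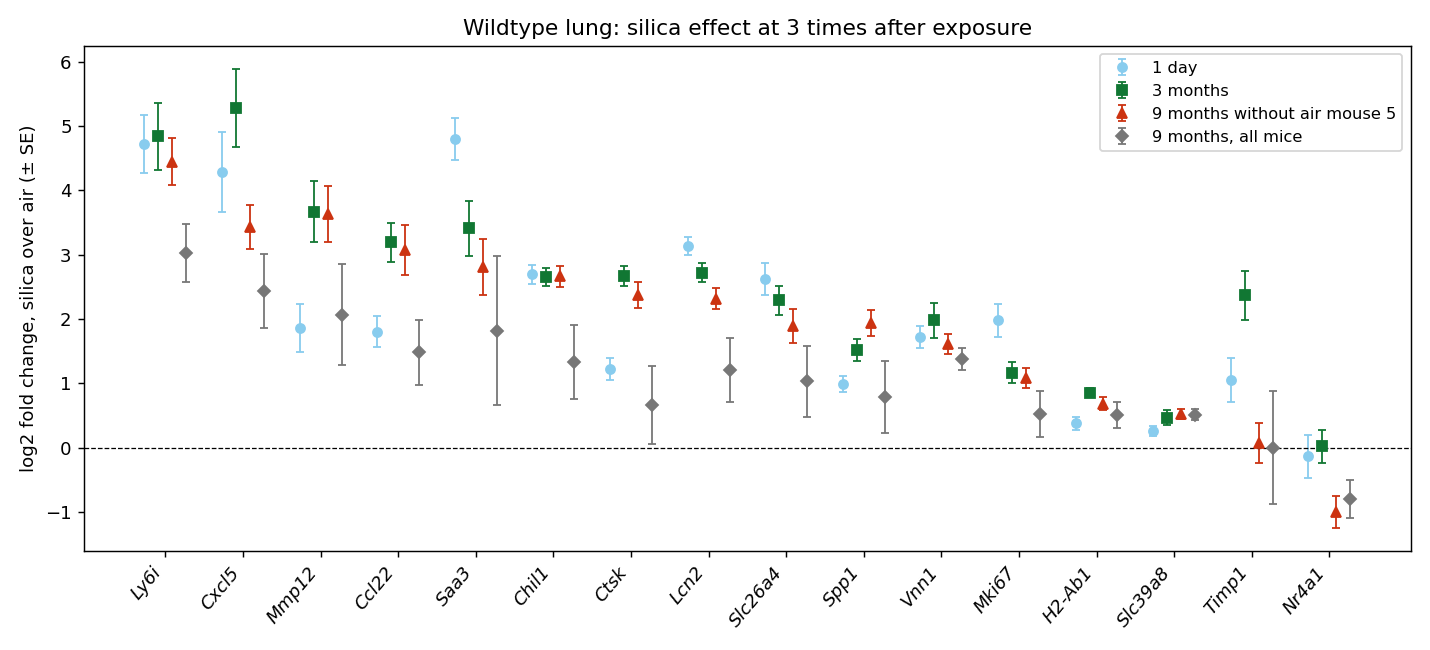
Log2 fold change of silica over air with its standard error (y axis) of 16 genes (x axis) in wildtype lung at 1 day, at 3 months, at 9 months without air mouse 5 and at 9 months with all mice. The values of 9 months without air mouse 5 lie near those of 3 months for Ly6i, Mmp12, Ccl22 and Chil1, while Timp1 stands at 2.36 at 3 months and 0.07 at 9 months. The fit without air mouse 5 also left out the 2 knockout air libraries over the Chil3 limit.

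The silica effect at 9 months was also tested against that in knockout lungs of the same time. No gene of 12826 differed in edgeR with all libraries (901 at an unadjusted p under 0.05), the smallest p belonging to the vesicle GTPase Rab27b (-0.74 ± 0.15), Lars2 (1.02 ± 0.22) and Fbrs (0.98 ± 0.21), each with an adjusted p of 0.351. In simulated counts of the same size, 44.8% of 2-fold differences and 23.9% of 1.5-fold differences were recovered with all libraries. Differences of that size between genotypes could thus be missed. Without the high-Chil3 air libraries Lars2, by its assigned counts, was the 1 of 12839 genes that differed, or 0.00779% (1.12 ± 0.20, adjusted p = 0.0409, knockout effect minus wildtype effect), its effect being -0.63 ± 0.14 in wildtype and 0.49 ± 0.14 in knockout lungs. For Slc26a4 the difference was -1.15 ± 0.84 with all libraries (adjusted p = 0.809) and 0.27 ± 0.54 without them (adjusted p = 0.944).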

How the data were processed

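The authors deposited 1 table of raw counts per gene and library, with 24439 rows. Per the labels' protocols, libraries were prepared after removal of ribosomal RNA with an Illumina TruSeq Stranded Total RNA kit and 12 amplification cycles. The submitters' processing notes name the build mm10, the aligner HISAT2 2.1.0, the counter HTSeq 0.11.2 and also SAMtools 1.8, Cufflinks, Trimmomatic 0.35 and bcl2fastq 2.19. The annotation and the strand setting of the counting are not given in the sources used here, so overlapping or antisense genes and near-identical copies may share reads. Of the rows, 19 that repeated a symbol with identical counts were dropped and 24420 kept.

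Genes were kept by edgeR's filterByExpr, scaled by TMM and tested with the quasi-likelihood F test, adjusted by Benjamini-Hochberg over all tested genes with a threshold of 0.05. The model held all 4 groups of 9 months (22 libraries, or 19 without 3 air libraries over 1500 CPM of Chil3, 1 wildtype and 2 knockout). The time comparison used all 70 libraries in 12 groups, and 1 day and 3 months were each fitted alone. Standard errors are the log2 fold change divided by the square root of F. The fits ran in edgeR 4.0.16 under R 4.3.3, with sva 3.50.0, DESeq2 1.42.0 and limma 3.58.1 for alternatives, and figures in matplotlib 3.10.9 under Python 3.11.15 (pandas 2.3.3, numpy 2.4.6). The test was checked on simulated counts with 200 changed genes. For the wildtype comparison without the 3 libraries, simulated on 12748 genes, the test found 98.5% of genes changed by 4-fold, 82.1% by 2-fold and 43.3% by 1.5-fold, and 6 of its 155 calls were false. Gene positions are from GENCODE on GRCm38.

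The comparison, the library limit and the 40 gene lists were chosen with earlier results of these data known. Named genes were Slc26a4, Chil3, the 15 largest increases and 10 largest decreases with a mean of at least 1 CPM, up to 4 called members of each list or the 2 of smallest p, and the 3 of smallest p in each comparison of effects. Slc13a3, list members beyond these and the genes of the closing section were named after their values were seen. Whether the libraries of a group are independent beyond coming from separately numbered animals is not stated, and p-values measure the spread between them. Counting intervals cover counting error only.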

Additional observations from a re-analysis of the deposited data

Results flagged for a closer look

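A single mouse stood apart from the other 4 of its group, with a gap to its nearest neighbour of more than 0.710 of the group's range, in 37 of the 80 checks made over 40 genes and both exposures. By chance about 1 check in 20 would show such a gap, and checks on genes of the same mouse are not independent. The genes checked were named ones, and many passed without air mouse 5 but not with all libraries. Chil3, by which that mouse was set aside, was also checked. The rate of 1 in 20 therefore cannot serve as a comparison for air mouse 5. In 27 of the 37 checks air mouse 5 was the highest air mouse. Its normalised CPM stood apart for Ly6i at 8.48, Slc26a4 at 74.9, Chil3 at 8094, Chil1 at 794, Lcn2 at 482, Saa3 at 14.6, Pigr at 250.2, Cxcl1 at 16.5 and Cxcl3 at 30.2. The same held for Cxcl5 at 17.0, Ccl3 at 18.8, Ccl6 at 847, Ccl17 at 10.4, Ccl22 at 17.9, Ctsk at 324, Mmp12 at 45.2, Spp1 at 368 and Gpnmb at 729.9. Further genes were Acp5 at 121, Marco at 278, H2-Ab1 at 493, Mki67 at 102, Il1rn at 38.2, Tnf at 9.42, Cfb at 339, Slc7a11 at 67.9 and Mt2 at 9.90. Air mouse 5 was the lowest air mouse, and apart from the rest, for Cdh13 at 16, Aqp5 at 115 and Gpihbp1 at 44.8.

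Silica mice stood apart in 7 checks. Silica mouse 3 was the highest for Vnn1 at 57.2, Cxcl1 at 21.6 and Ccl22 at 22.1, and silica mouse 5 for Ctsk at 188, Mmp12 at 75.4 and Spp1 at 312. Silica mouse 4 was the highest for Aqp5 at 218, where it lay in the range of the air mice. No silica mouse was the lowest of its group by this rule.

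The silica effect on counts assigned to Lars2, whose reads the table does not identify, differed between genotypes at 9 months when the 3 air libraries of high Chil3 were set aside, by 1.12 (log2, knockout minus wildtype, adjusted p = 0.0409 in edgeR), with effects of -0.63 in wildtype and 0.49 in knockout lungs. With all libraries the difference was 1.02, with an adjusted p of 0.351. All 5 wildtype silica mice had a smaller Lars2 share than the 5 wildtype air mice.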

How the results depend on the processing

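With all libraries, the 3 calls stayed 3 with DESeq2 size factors, DESeq2, other filters and Lars2 removed, and were 2 with the wildtype groups alone. They became 42 with voom quality weights, 41 with 1 surrogate variable and 9 with all 70 libraries in 1 fit; the cause was not tested. With the Lars2 share as a covariate they became 0 in edgeR, 574 genes having an unadjusted p under 0.05. Leaving out 1 library gave 2 to 20, and 20 came from setting aside air mouse 5. Without the high-Chil3 air libraries, the 211 calls lay between 144 and 289 under 12 alternatives, became 89 with the Lars2 covariate and 20 when the wildtype air library alone was set aside, and lay between 120 and 268 when 1 more library was left out, 120 without air mouse 2. The 0 calls between 9 and 3 months in edgeR (772 at an unadjusted p under 0.05) stayed 0 to 0 when 1 library was left out and under all 8 other alternatives. Where edgeR gave 0 calls between genotypes (901 unadjusted), DESeq2 gave 2, voom quality weights 1, 1 surrogate variable 1 and the set without high-Chil3 libraries 1 (Lars2), and leaving out 1 library gave 0 to 1, the 1 without knockout silica mouse 2. Chil3 with all mice turned from -0.77 to 0.37 with quality weights and 0.78 without air mouse 5 (-1.14 to 0.78 over all fits without 1 library). Of 139 named genes, Timp1, near 0, turned to -0.0063 with quality weights and to -0.15 and -0.07 without silica mouse 3 or 4 (-0.15 to 0.20 over fits without 1 library), and Alb turned to 0.11 without air mouse 1 (-2.45 to 0.11); no called gene changed sign under any alternative run. Leaving out the knockout libraries one at a time, both uses of Lars2 and the Chil3 limit on silica libraries (161 calls) were tried after the data were seen. No paired analysis was possible because the animal numbers are unique and link no air mouse to a silica mouse. Libraries of 1464182 to 2656032 counts limit genes of few counts, and 4 or 5 mice a group limit all tests.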

Other observations

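Genes outside the 40 lists also rose without air mouse 5, and the ones given here were picked after their values were seen. Myeloid surface receptors among them were the spleen tyrosine kinase-coupled lectin Clec5a (2.24 ± 0.31), the galactose lectin Mgl2 (1.51 ± 0.19), the inhibitory receptors Lilrb4a (1.19 ± 0.19) and Fcgr2b (0.99 ± 0.20), the endocytic receptor Ly75 of dendritic cells (1.15 ± 0.17) and the shared cytokine receptor chain Csf2rb (0.77 ± 0.12). Secreted proteins were the activin subunit Inhba (2.18 ± 0.35), the activin-binding Fstl1 (0.65 ± 0.11), the inter-alpha-trypsin inhibitor heavy chain Itih4 (1.44 ± 0.18) and the metalloproteinase Mmp19 (1.08 ± 0.17). Noxo1, an organiser of the epithelial NADPH oxidase Nox1, rose by 1.63 ± 0.24, and the cholesterol hydroxylase Ch25h by 1.06 ± 0.24. At 3 months Clec5a stood at 1.90 ± 0.30, Mgl2 at 1.31 ± 0.14, Noxo1 at 1.67 ± 0.20 and Ch25h at 2.20 ± 0.24, all called there, whereas Inhba (1.19 ± 0.40, adjusted p = 0.108 in edgeR) and Fstl1 (0.34 ± 0.11, adjusted p = 0.115) were not.

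Among the lower genes outside the lists were the collagen chaperone Serpinh1 (-0.31 ± 0.08), the proteoglycan Hspg2 (-0.45 ± 0.10), the growth factor binder Igfbp4 (-0.49 ± 0.10) and the protease Adamts1 (-0.72 ± 0.15). Vessel and mesenchyme genes were the junction protein Esam (-0.46 ± 0.10), the receptor partner Ramp2 (-0.40 ± 0.11), the natriuretic peptide receptor Npr3 (-0.63 ± 0.13), the transcription factor Foxf1 (-0.50 ± 0.13) and its neighbouring long RNA Fendrr (-0.40 ± 0.10). Muscle-associated genes were Flnc (-0.76 ± 0.16) and Cryab (-0.59 ± 0.12). None of these 11 was called at 3 months, and Serpinh1 kept its 9-month call under 8 of 33 alternatives. Albumin, Alb, a liver transcript, read 33.9, 1.74, 3.40, 0.420 and 90.5 normalised CPM in air mice 1 to 5 and 3.74, 3.84, 0.900, 0.835 and 0.555 in silica mice 1 to 5.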
